A study of Mus musculus with 34 samples.

Results

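Bulk RNA-seq of mouse pancreatic islets was used to ask whether the response to ablation of part of the beta cells differed between diets. For each gene the effect of diphtheria toxin (DT) on the diet labelled HFD, DT HFD over CTRL HFD, was set against its effect on the diet labelled SD, DT SD over CTRL SD. The difference between these log2 fold changes is called the interaction below, and it is positive where the DT effect was higher on HFD. The experiment comprised 14 of the 34 samples of the series, chosen by their labels alone: 3 DT HFD, 4 CTRL HFD, 4 DT SD and 3 CTRL SD islet samples. One further library is titled as replicate 1 of CTRL HFD while its treatment label is DT, and it was left out, so that CTRL HFD is made up of replicates 2 to 5.

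All mice carried the genotype labelled RIP-DTR HTZ, also those of the CTRL groups, and the labels name no other allele. In such mice a promoter of the rat insulin gene is joined to a receptor for the toxin, which makes beta cells sensitive to it; the promoter also sets the limit of the model, since cells that do not use it are not targeted. The DT groups had received DT and were sampled 10 weeks after ablation, and the CTRL groups are labelled as having no treatment and as 10 weeks. The labels name neither the age or sex of the mice, nor the dose of DT, the composition of the diets or the time of day at which islets were taken. They do not say whether each sample came from 1 mouse or a pool, so p-values measure the spread between samples, which may be partly technical. That spread was estimated over 33 libraries of 9 labelled groups, the 14 of this experiment among them.

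Beta cells make up most of a mouse islet and secrete insulin. Alpha, delta and PP cells beside them secrete glucagon, somatostatin and pancreatic polypeptide, and vessels, stroma, macrophages and lymphocytes also contribute RNA to an islet preparation. Islet cells hold a circadian clock in which BMAL1, the product of Arntl, and CLOCK activate Per, Cry, Nr1d1, Nr1d2, Dbp, Tef and Hlf. The REV-ERB repressors made from Nr1d1 and Nr1d2 act back on Arntl, so that Arntl and targets such as Nr1d1 and Dbp peak at opposite times of day. Adult beta cells divide rarely.

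Of all genes in the lists, the clock gene Arntl had the smallest p for the interaction, which missed the threshold after adjustment (edgeR adjusted p = 0.12). Arntl stood lowest in DT SD islets while Nr1d1, Nr1d2 and Dbp stood highest there, and on HFD the DT and CTRL libraries overlapped for all of these genes. The labels do not give the time of day at which islets were taken, so it cannot be told apart from DT or diet in these genes. All 22 mitosis genes and 27 of 28 DNA replication genes had positive interaction values, and 19 of 20 beta cell markers and all 20 exocytosis genes negative ones, with much spread between libraries. Over all 17616 genes 8830 values were positive and 8769 negative. The mitosis, beta cell and exocytosis medians were 1.83, -0.85 and -0.88. With the mean level of lymphocyte markers as a covariate they were 0.46, -0.07 and -0.07. Without DT HFD replicate 1 and CTRL HFD replicate 4 they were 2.26, -1.13 and -1.38. Without DT HFD replicate 2, 0 mitosis, beta cell or exocytosis genes had an unadjusted p below 0.05. No gene passed the threshold for the interaction: of 17616 genes tested with edgeR's quasi-likelihood test and the Benjamini-Hochberg adjustment, 0 (0%) had an adjusted p below 0.05, and the smallest adjusted p was 0.12. The interaction values below are therefore descriptions of size and direction. At an unadjusted p below 0.05 there were 2751 genes (15.6%), of which 1755 had positive (9.96%) and 996 negative (5.65%) interaction values. The count of 2751 depended on a few libraries. It was 545 with the lymphocyte covariate, 998 without DT SD replicates 1 and 3, and 1049 without DT HFD replicate 2. Without DT HFD replicate 1 and CTRL HFD replicate 4 it was 4420. DESeq2's Wald test called 106 genes, 84 positive and 22 negative. Of the 84, 39 had over 50% of their counts in DT HFD replicate 1, the library with the most enterocyte RNA, among them the enterocyte genes Sis and Alpi, and these 39 all had DESeq2 interaction values over 10.

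Few genes were called for either component effect, though of 17616 genes 2104 on HFD and 1400 on SD had an unadjusted p below 0.05. DT against CTRL on HFD gave 1 call (0.00568% of the genes tested), and DT against CTRL on SD gave 6 (0.0341%), of which 1 rose (0.00568%) and 5 fell (0.0284%). The median standard error (SE) of the log2 values was 0.44 for the interaction and 0.31 for each DT effect. The 14 libraries held between 11083117 and 18918348 counts. Insulin mRNA, the product of Ins2, was the most abundant transcript in all of them except DT HFD replicate 2 and CTRL HFD replicate 4, and glucagon, insulin and somatostatin were counted in every library.

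Libraries differed in RNA of other cells. The lymphocyte score, the mean log2 CPM (counts scaled to library size) of 15 T and B cell markers, lay between 5.86 and 6.83 in DT HFD, and between 5.13 and 6.34 in CTRL HFD. On SD it was 2.60, 4.95, 2.28 and 5.60 in DT replicates 1 to 4 and between 5.59 and 5.93 in CTRL, so that DT SD replicates 1 and 3 stood apart from all other libraries. The summed CPM of the 15 markers ranged from 1586 to 2863 in DT HFD, 952 to 1802 in CTRL HFD, 107 to 1026 in DT SD and 1048 to 1225 in CTRL SD, and none of them was at 0 in any library. Enterocyte markers summed to 2502 CPM in DT HFD replicate 1 and to between 58.9 and 184 CPM in the other 13 libraries, and 8 of these 10 markers were at 0 in at least 1 DT SD library. Acinar markers summed to between 10204 and 30389 CPM in DT HFD, 43903 and 123860 in CTRL HFD, 54787 and 233756 in DT SD, and 9748 and 222988 in CTRL SD. In bulk samples fewer cells of a type and less RNA per cell cannot be told apart.

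**Figure D1:**
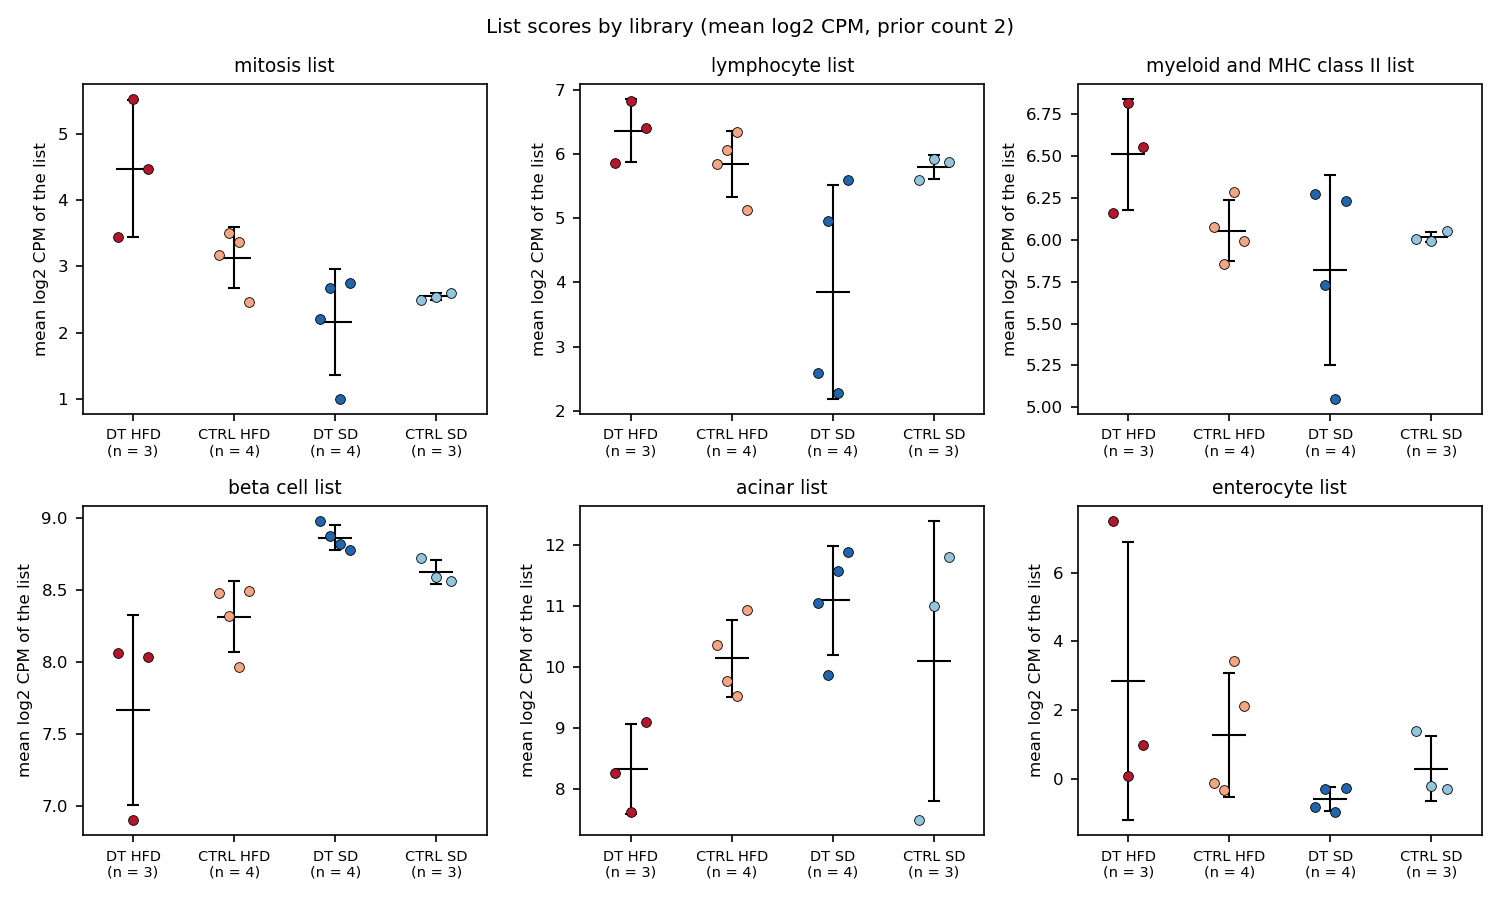
Score (mean log2 CPM) of 6 gene lists in each of the 14 libraries, with points for libraries and bars for the group mean and SD; the groups are DT HFD (n = 3), CTRL HFD (n = 4), DT SD (n = 4) and CTRL SD (n = 3). The lymphocyte score separates DT SD replicates 1 and 3 (2.60 and 2.28) from the rest, the mitosis score is highest in DT HFD replicate 2 (5.52), and the enterocyte score is 7.50 in DT HFD replicate 1.

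Of 15 clock genes tested, 9 had an unadjusted p below 0.05 in the interaction, 2 positive and 7 negative, against 9.96% positive and 5.65% negative over all genes. The median interaction over the list was -0.68 (log2), against 0.00 over all genes, with a median DT effect of -0.25 on HFD and 0.43 on SD. Arntl and Cry1 were the 2 positive genes. Nr1d1, Nr1d2, Dbp, Tef, Hlf, Per3 and Bhlhe41 were the 7 negative ones. The promoters of 4 of these genes are shown because they carry the short elements through which the clock proteins are known to act on each other's genes. They are RefSeq promoter windows of 300 bases on GRCm38.p6, from 250 bases before to 50 after the start site, read on the gene's strand, with the element in capitals. Arntl (chr7:113207261-113207560, plus strand) holds TAGGTCA, the core of the element bound by ROR and REV-ERB proteins, 30 bases after the start site. Cry1 (chr10:85185005-85185304, minus strand) and Tef (chr15:81802423-81802722, plus strand) hold the E-box CACGTG, bound by BMAL1 and CLOCK. Per3 (chr4:151044616-151044915, minus strand) holds TTATGTAA, a D-box of the kind bound by the products of Dbp, Tef and Hlf, at 2 places.
Arntl: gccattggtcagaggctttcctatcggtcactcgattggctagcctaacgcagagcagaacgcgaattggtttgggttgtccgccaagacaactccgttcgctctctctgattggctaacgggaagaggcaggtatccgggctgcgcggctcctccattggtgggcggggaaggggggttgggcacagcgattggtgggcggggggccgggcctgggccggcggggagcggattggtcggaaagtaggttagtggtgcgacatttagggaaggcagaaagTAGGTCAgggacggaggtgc
Cry1: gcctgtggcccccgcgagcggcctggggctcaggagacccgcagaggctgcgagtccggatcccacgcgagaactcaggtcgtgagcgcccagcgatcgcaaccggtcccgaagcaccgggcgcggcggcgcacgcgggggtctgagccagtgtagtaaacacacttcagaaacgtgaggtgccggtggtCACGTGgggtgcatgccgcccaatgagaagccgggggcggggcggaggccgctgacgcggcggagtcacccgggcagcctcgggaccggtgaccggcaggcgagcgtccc
Tef: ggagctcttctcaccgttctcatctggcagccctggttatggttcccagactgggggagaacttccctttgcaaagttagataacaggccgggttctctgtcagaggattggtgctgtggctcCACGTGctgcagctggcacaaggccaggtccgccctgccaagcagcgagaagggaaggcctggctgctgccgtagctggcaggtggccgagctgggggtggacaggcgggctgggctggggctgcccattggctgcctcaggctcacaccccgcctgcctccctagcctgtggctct
Per3: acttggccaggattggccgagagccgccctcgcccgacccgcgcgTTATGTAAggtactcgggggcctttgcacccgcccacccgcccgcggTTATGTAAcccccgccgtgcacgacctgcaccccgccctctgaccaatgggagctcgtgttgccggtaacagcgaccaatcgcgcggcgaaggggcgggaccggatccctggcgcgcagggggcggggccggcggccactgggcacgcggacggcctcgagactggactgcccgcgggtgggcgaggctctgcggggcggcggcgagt

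Both strands were searched for CACGTG and for TAGGTCA, and also for TTATGTAA and its variant TTACGTAA. None of the matches shown overlaps another. Of 32851 RefSeq mouse promoters of the same length, 7.15% held CACGTG, 2.61% held TAGGTCA, 0.938% held TTATGTAA and 0.119% held TTACGTAA. Of the 15 clock genes 14 had an entry, with 19 promoter windows. The E-box letters stood in 6 of these windows, of Bhlhe41, Ciart, Cry1, Per1 and Tef. TAGGTCA stood in 1 window, that of Arntl, and TTATGTAA in 1, that of Per3. A match is a description of the letters and not a shown binding site.

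Arntl (chromosome 7, 113207465 to 113314126, GENCODE M21 on GRCm38) encodes BMAL1, the activator of the clock. Its level was 15.6, 20.4 and 19.5 CPM in the DT HFD libraries and 17.7, 17.4, 15.2 and 16.6 CPM in the CTRL HFD libraries. On SD it was 8.77, 5.89, 8.67 and 10.3 CPM in the DT libraries and 23.2, 19.3 and 24.7 CPM in the CTRL libraries. The groups overlapped on HFD, while on SD every DT library lay below every CTRL library. The group means were 18.5 ± 2.56 CPM in DT HFD (SD, n = 3), 16.7 ± 1.11 in CTRL HFD (n = 4), 8.41 ± 1.84 in DT SD (n = 4) and 22.4 ± 2.75 in CTRL SD (n = 3). Arntl fell after DT on SD (log2 fold change -1.41, SE 0.20, edgeR adjusted p = 0.00152), and its DT effect on HFD was 0.15 (SE 0.20, edgeR adjusted p = 0.742). The call on SD held in 16 of 17 other settings and was lost without DT SD replicates 1 and 3, where the log2 fold change was -1.45 (edgeR adjusted p = 0.191). Over the other edgeR settings the edgeR adjusted p of this DT effect ran from 0.00144 to 0.191, and the DESeq2 adjusted p was 1.33e-08. The interaction was 1.56 (SE 0.28, edgeR adjusted p = 0.12), shared with Hbp1 as the smallest adjusted p of all genes. It was 4.40e-05 with DESeq2, and over the other settings it ranged up to 0.752 while the interaction value kept to between 1.42 and 1.67.

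Cry1, a repressor of the clock, had the same order of groups on SD. It stood at 11.5, 13.5 and 11.4 CPM in DT HFD and 12.1, 14.3, 11.4 and 12.2 CPM in CTRL HFD. It stood at 9.42, 9.49, 12.04 and 8.82 CPM in DT SD and 15.1, 19.3 and 19.9 CPM in CTRL SD, with no overlap on SD and full overlap on HFD. Its interaction was 0.82 (SE 0.26, edgeR adjusted p = 0.282), and its DT effect on SD, -0.87 (SE 0.18), did not pass (edgeR adjusted p = 0.0769).

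The REV-ERB genes showed the opposite order. Nr1d1, which encodes REV-ERB alpha, stood at 45.4, 20.6 and 47.2 CPM in DT HFD and 56.0, 57.5, 43.2 and 66.6 CPM in CTRL HFD. On SD it stood at 91.8, 105.8, 80.9 and 83.3 CPM after DT and 50.1, 28.2 and 21.0 CPM in CTRL. All 4 DT SD libraries lay above all 3 CTRL SD libraries, and the HFD groups overlapped through DT HFD replicates 1 and 3. Nr1d2, which encodes REV-ERB beta, stood at 94.1, 39.9 and 73.9 CPM in DT HFD and 86.5, 92.4, 86.3 and 112.5 CPM in CTRL HFD. It stood at 149.4, 137.1, 144.0 and 129.1 CPM in DT SD, well apart from the 74.0, 67.5 and 64.1 CPM of CTRL SD. The interaction was -2.01 (SE 0.57) for Nr1d1 and -1.48 (SE 0.37) for Nr1d2, with edgeR adjusted p of 0.282 and 0.26. With DESeq2 the adjusted p was 0.0487 and 0.0247. In both genes DT HFD replicate 2 was the lowest library of its diet.

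Dbp, Tef and Hlf encode the PAR bZIP transcription factors, output regulators of the clock that act on D-boxes. Dbp stood at 52.5, 16.3 and 41.8 CPM in DT HFD and 67.1, 57.7, 44.6 and 50.4 CPM in CTRL HFD. On SD it stood at 80.9, 106.4, 80.1 and 93.5 CPM after DT and 39.3, 35.9 and 19.8 CPM in CTRL. The SD groups did not overlap, and DT HFD replicate 2 held the lowest value of all 14. The interaction of Dbp was -2.08 (SE 0.56, edgeR adjusted p = 0.282, DESeq2 adjusted p = 0.0293), the most negative of the list. Tef ranged from 28.6 to 58.8 CPM in DT HFD, 54.2 to 66.0 in CTRL HFD, 76.4 to 89.5 in DT SD and 36.1 to 51.8 in CTRL SD, an interaction of -1.22 (SE 0.36). Hlf ranged from 3.19 to 15.6 CPM, 11.0 to 15.3, 11.6 to 23.8 and 8.47 to 10.8 CPM in the same 4 groups, an interaction of -1.54 (SE 0.56). Per3, of the period family of repressors, ranged from 9.70 to 29.9 CPM in DT HFD, 17.7 to 32.1 in CTRL HFD, 21.7 to 34.6 in DT SD and 11.4 to 13.5 in CTRL SD, an interaction of -1.58 (SE 0.61). For these 3 genes too the SD groups did not overlap. Separation on SD alone was not counted over all genes, so no share of all genes stands beside it for any gene named here. DESeq2 called neither these 3 genes nor Cry1 or Bhlhe41 in the interaction.

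The other 6 clock genes had an unadjusted p above 0.05. Per1 had an interaction of -0.27 (SE 0.29), Per2 of -0.58 (SE 0.41), Clock of -0.26 (SE 0.26), Cry2 of -0.72 (SE 0.40) and Ciart of -0.40 (SE 0.70). Npas2, a relative of CLOCK, had one of 1.28 with a SE of 1.12, at no more than 4.55 CPM in any library. Over the 25 settings run, the list held 2 positive and between 4 and 8 negative genes at an unadjusted p below 0.05. The list median ranged from -0.80 to -0.05 over the same settings. The value of -0.05 came with the lymphocyte score as a covariate, where the counts were 2 and 4. Without DT HFD replicate 2 the median was -0.51 and the counts 2 and 5, and without DT SD replicates 1 and 3 they were -0.52 and also 2 and 5. For all clock genes, the unlabelled time of day of sampling cannot be told apart from DT or diet, and its part was not tested.

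**Figure D2:**
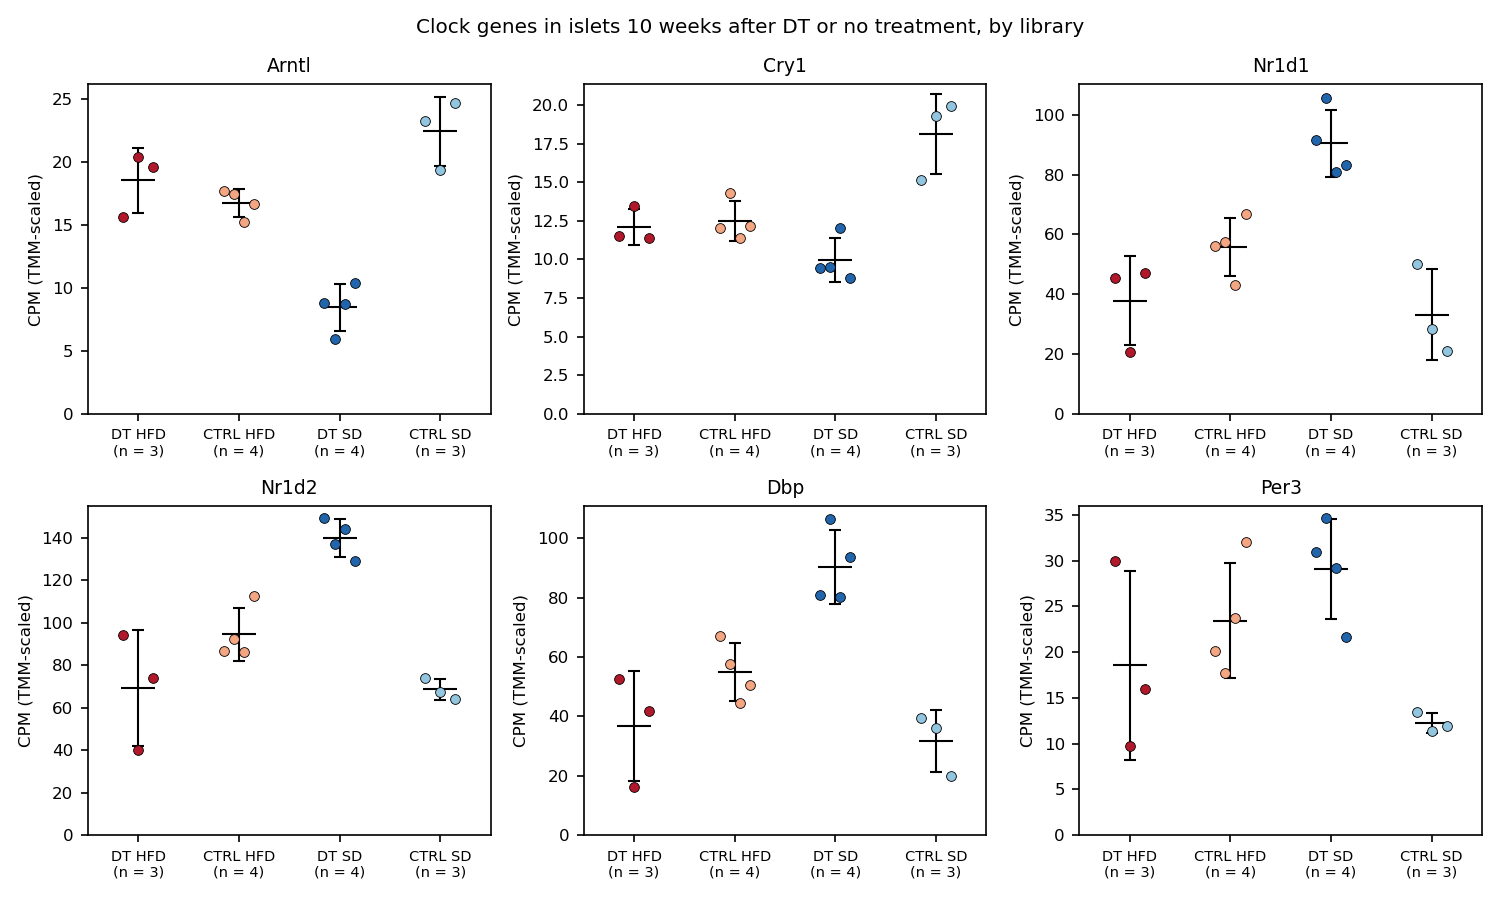
CPM of 6 clock genes in each library (points), with the group mean and SD (bars), for DT HFD (n = 3), CTRL HFD (n = 4), DT SD (n = 4) and CTRL SD (n = 3). Arntl and Cry1 have their lowest group mean in DT SD and their highest in CTRL SD, Nr1d1, Nr1d2, Dbp and Per3 are the other way round on SD, and DT and CTRL overlap on HFD in all 6 genes.

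Among the 6 positive and 6 negative genes with the smallest interaction p, the clock gene Arntl came with genes of other functions. These 12 genes were chosen by the difference between the DT effects, and that choice favours DT effects of opposite sign. Hbp1 (chromosome 12, 31926254 to 31950535), a transcriptional repressor that holds back cell division, stood at 70.9, 63.6 and 70.2 CPM in DT HFD and 80.0, 76.2, 75.7 and 75.9 CPM in CTRL HFD. It stood at 86.6, 77.1, 92.8 and 91.6 CPM in DT SD and 63.7, 52.6 and 59.0 CPM in CTRL SD. DT lay below CTRL in every library on HFD and above it in every library on SD. Hbp1 rose after DT on SD (log2 fold change 0.57, SE 0.10, edgeR adjusted p = 0.0155), its DT effect on HFD was -0.17 (SE 0.10, edgeR adjusted p = 0.46), and the interaction was -0.75 (SE 0.14, edgeR adjusted p = 0.12). The call on SD held in 8 of 17 other settings; leaving out any 1 of DT SD replicates 1, 3 and 4 or CTRL SD replicates 2 and 3 lost it, with log2 fold changes of 0.50 to 0.58 and edgeR adjusted p of 0.0664 to 0.304 there.

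Fbxo32 and Ogn crossed in the same way. Fbxo32, a ubiquitin ligase subunit best known from wasting muscle, stood at 17.8, 14.1 and 19.2 CPM in DT HFD and 27.2, 27.7, 28.0 and 23.3 CPM in CTRL HFD. It stood at 29.4, 31.6, 29.6 and 26.5 CPM in DT SD and 15.3, 11.1 and 14.7 CPM in CTRL SD, an interaction of -1.73 (SE 0.37, edgeR adjusted p = 0.182). When the 14 libraries were fitted alone, 2 genes were called in the interaction, both negative, and Fbxo32 was one of them (edgeR adjusted p = 0.0136). DESeq2 called it too (DESeq2 adjusted p = 0.00247), and no other setting did. Ogn, a small proteoglycan of connective tissue, stood at 6.47, 5.65 and 6.45 CPM in DT HFD, below the 10.3, 8.94, 10.1 and 18.8 CPM of CTRL HFD. It stood at 41.4, 22.8, 17.2 and 24.3 CPM in DT SD, above the 11.6, 9.38 and 8.19 CPM of CTRL SD, an interaction of -2.39 (SE 0.51, edgeR adjusted p = 0.182).

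Mfap5, a protein of elastic microfibrils, and Snx14, a sorting nexin, also lay below CTRL in all DT libraries on HFD and above it in all DT libraries on SD, with interactions of -3.40 (SE 0.81) and -0.68 (SE 0.16). Mfap5 was at 0.791 to 1.76 CPM in DT HFD and 5.47 to 19.99 CPM in DT SD, against 2.00 to 4.26 CPM in CTRL HFD and 1.64 to 2.71 CPM in CTRL SD. Rin2, an activator of the endocytic GTPase Rab5, had an interaction of -0.94 (SE 0.23), and its groups overlapped on SD. The edgeR adjusted p of these 3 genes lay between 0.228 and 0.236. Snx14 shares exon bases with Gm20537 on the same strand, so its counts are uncertain.

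On the positive side Nab2, a corepressor of EGR transcription factors, fell after DT on SD (log2 fold change -1.06, SE 0.18, edgeR adjusted p = 0.013), with a DT effect of 0.13 (SE 0.18) on HFD. The call held in 10 of 17 other settings, and without DT SD replicate 1, DT SD replicate 3, CTRL SD replicate 2 or CTRL SD replicate 3 the edgeR adjusted p was 0.0819, 0.0857, 0.192 and 0.0813. It stood at 24.8, 27.6 and 25.1 CPM in DT HFD, 19.5, 24.8, 28.3 and 21.9 CPM in CTRL HFD, 11.7, 14.4, 11.4 and 13.8 CPM in DT SD and 21.3, 31.7 and 27.0 CPM in CTRL SD. The interaction was 1.18 (SE 0.25, edgeR adjusted p = 0.182). Pygo2, a coactivator of Wnt signalling, stood at 24.6, 28.6 and 28.2 CPM in DT HFD, above the 19.3 to 24.0 CPM of CTRL HFD, and at 15.9 to 16.8 CPM in DT SD, below the 20.7 to 24.7 CPM of CTRL SD. Its interaction was 0.78 (SE 0.16). Nup62, a protein of the nuclear pore, crossed in the same direction with an interaction of 1.34 (SE 0.29), and DT HFD replicate 2 held its highest value, 56.1 CPM. Nup62 shares exon bases with Il4i1 on the same strand, so its counts are uncertain. Map1s, a microtubule-associated protein, had an interaction of 0.97 (SE 0.21), and its groups overlapped on HFD and did not on SD.

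Ighv5-9 is a variable segment of the immunoglobulin heavy chain. It had 119, 329 and 5284 counts in the DT HFD libraries and 19, 63, 61 and 7 in the CTRL HFD libraries. It had 1, 3, 6 and 16 counts in the DT SD libraries and 179, 9 and 26 in the CTRL SD libraries. The interaction was 8.47 (SE 1.77, edgeR adjusted p = 0.182), and DT HFD replicate 3 alone held 321.5 CPM, against 7.00 and 21.9 in the other DT HFD libraries. Variable segments have near-identical copies, and reads could be split between them in the counting. Over all 111 tested Ighv segments, counted after values were seen, 92 had positive interaction values, and of 103 Igkv segments 88 did, against 8830 of all 17616 genes.

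**Figure D3:**
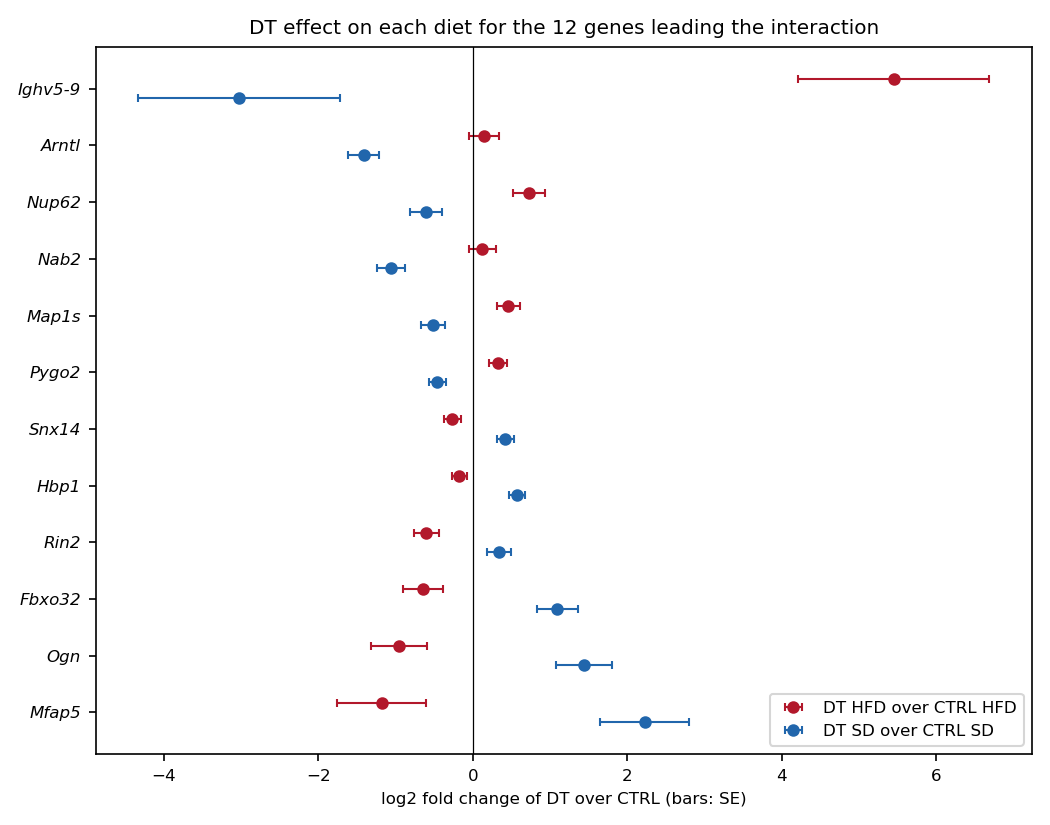
Log2 fold change of DT over CTRL on HFD (red) and on SD (blue) for the 6 positive and 6 negative genes with the smallest interaction p, with SE as bars. The genes were chosen by the difference between the effects plotted, which range from 5.45 on HFD and -3.02 on SD for Ighv5-9 to -1.18 on HFD and 2.23 on SD for Mfap5.

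Among the 1755 genes with a positive interaction and an unadjusted p below 0.05, the DT effect was the larger one on HFD in 860 and on SD in 895. Among the 996 negative ones it was the larger one on HFD in 626 and on SD in 370. Complete separation of DT and CTRL libraries on both diets, in opposite directions, was seen in 84 genes with a positive interaction (0.477%) and in 154 with a negative one (0.874%) of all genes tested.

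Of the genes called in a single diet, Rps2, a ribosomal protein gene with near-identical copies, rose after DT on HFD (269 ± 45.6 CPM in DT HFD, n = 3, and 68.3 ± 12.6 in CTRL HFD, SD, n = 4; edgeR adjusted p = 0.00421). On SD it stood at 202 ± 18.8 CPM after DT (n = 4) and 72.3 ± 3.14 CPM in CTRL (n = 3), and its interaction was 0.50 (SE 0.41). The call on HFD was lost without DT HFD replicate 2 (edgeR adjusted p = 0.0667) or CTRL HFD replicate 5 (edgeR adjusted p = 0.055), with log2 fold changes of 1.84 and 1.89 against 1.98 with all libraries. Erdr1, of the pseudoautosomal region, fell after DT on SD, with 42.0, 67.0, 38.8 and 62.6 CPM in DT SD and 183, 182 and 219 CPM in CTRL SD (edgeR adjusted p = 0.00152). On HFD it stood at 125, 106 and 127 CPM after DT and 152, 169.6, 139.6 and 121 CPM in CTRL, an interaction of 1.60 (SE 0.38, edgeR adjusted p = 0.236). The immunoglobulin joining segment Ighj1 (log2 fold change -3.71, edgeR adjusted p = 0.0231) and Gm21887 (-2.99, edgeR adjusted p = 0.00865) also fell after DT on SD, and these calls held in 9 and 11 of 17 other settings, that of Erdr1 in 16. With DT SD replicate 1, DT SD replicate 3 or CTRL SD replicate 3 left out, Ighj1 was at -3.72, -3.44 and -2.76 and Gm21887 at -2.89, -2.76 and -2.51, and neither was called. Without both DT SD replicates 1 and 3, the libraries with few lymphocyte transcripts, 0 genes were called on SD.

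Hormone genes had wide spreads. Ins2, which encodes most of the insulin of the mouse, stood at 65075, 19244 and 74533 CPM in DT HFD and 112193, 66501, 23836 and 80125 CPM in CTRL HFD. On SD it stood at 163539, 165308, 152886 and 152043 CPM after DT and 123307, 108317 and 112329 CPM in CTRL. The HFD groups overlapped and the SD groups did not, and the share of all genes apart on SD was not counted. The interaction was -0.88 (SE 0.79, edgeR adjusted p = 0.555) for Ins2 and -0.81 (SE 0.73, edgeR adjusted p = 0.561) for Ins1. Gcg (glucagon) had an interaction of -0.74 (SE 0.56), Sst (somatostatin) of 0.06 (SE 1.02) and Ppy (pancreatic polypeptide) of -0.10 (SE 2.24). Ppy stood at 4819, 117 and 12.5 CPM in DT HFD, 3877, 2045, 1401 and 2046 in CTRL HFD, 187, 29.5, 7798 and 170.0 in DT SD, and 3384, 2855 and 1890.4 in CTRL SD. For Gcg, Sst and Ppy the sign of the interaction turned with 1 or more of the settings.

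Among the 20 beta cell markers, 19 had negative interaction values, against 8769 of all 17616 genes. Of the 20, 3 were negative at an unadjusted p below 0.05, against 5.65% of all genes, with a list median of -0.85, and -0.54 and 0.27 for the DT effects on HFD and on SD. Slc2a2, the glucose transporter GLUT2, stood at 286, 118 and 215 CPM in DT HFD, 364, 395, 367 and 432 in CTRL HFD, 463, 713, 358 and 468 in DT SD, and 433, 319 and 341 in CTRL SD. DT lay below CTRL in every library on HFD, and the SD groups overlapped (interaction -1.37, SE 0.61, edgeR adjusted p = 0.299). G6pc2, the islet glucose-6-phosphatase, stood at 226 to 544 CPM in DT HFD, 583 to 722 in CTRL HFD, 1365 to 1981 in DT SD and 953 to 1158 in CTRL SD (interaction -1.34, SE 0.64). Slc30a8, the zinc transporter of the insulin granule, had an interaction of -1.13 (SE 0.52). Mafa, an activator of insulin transcription, was the 1 marker above 0, at 0.45 (SE 0.61).

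The granule and exocytosis list behaved alike. All 20 genes had negative values, 4 at an unadjusted p below 0.05 (5.65% over all genes), with a median of -0.88, and -0.68 and 0.17 for the DT effects on HFD and on SD. Sytl4, the granule docking protein granuphilin, stood at 87.0, 48.5 and 94.9 CPM in DT HFD, below the 127 to 155 CPM of CTRL HFD, and at 181 to 240.4 CPM in DT SD, above the 145 to 166 CPM of CTRL SD (interaction -1.29, SE 0.57). Cplx2, a clamp of vesicle fusion, had one of -1.05 (SE 0.49), and all 10 alpha cell markers were below 0 too, with a median of -0.70. DT HFD replicate 2 had the lowest beta cell score of the 14 libraries, 6.91, and the highest lymphocyte and mitosis scores. Without it the beta cell median was -0.55 and the exocytosis median -0.63, with 0 genes at an unadjusted p below 0.05 in either list. With the lymphocyte score as a covariate the medians were -0.07 and -0.07. Without DT HFD replicate 1 and CTRL HFD replicate 4, the libraries of highest enterocyte score, they were -1.13 and -1.38, with 4 and 13 negative genes at an unadjusted p below 0.05. Over all settings these counts ran from 0 to 11 for beta cell markers and from 0 to 13 for exocytosis genes.

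Mitosis and replication genes lay above 0, apart from 1 of the 28 replication genes. Of 22 mitosis genes 16 had a positive interaction with an unadjusted p below 0.05, and of 28 DNA replication genes 17 had, none negative, against 9.96% positive over all genes, with medians of 1.83 and 1.16. The 12 D cyclins and inhibitors of cyclin-dependent kinases were mixed, with 7 values above 0 and 5 below, 2 positive at an unadjusted p below 0.05 and a median of 0.13. The DT effect had a median of 1.54 on HFD and -0.22 on SD in the mitosis list. Mki67, a marker of dividing cells, stood at 74.4, 381 and 178 CPM in DT HFD and 42.8, 63.3, 72.7 and 31.9 CPM in CTRL HFD. It stood at 20.7, 39.5, 6.82 and 33.6 CPM in DT SD and 24.9, 26.8 and 28.2 CPM in CTRL SD. DT lay above CTRL in every library on HFD, by less than 2 CPM between the nearest ones, and the SD groups overlapped. The interaction was 2.08 (SE 0.84, edgeR adjusted p = 0.282).

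Bub1b, of the spindle checkpoint, had an interaction of 2.09 (SE 0.75), Pcna, the clamp of the replication fork, of 1.20 (SE 0.37), and Pole, a replicative polymerase, of 1.98 (SE 0.69). Pcna stood at 76.7, 172 and 101 CPM in DT HFD, 53.4 to 70.5 in CTRL HFD, 43.5 to 54.4 in DT SD and 54.3 to 66.9 in CTRL SD. Cdkn1a, the p21 inhibitor of the cell cycle, had one of 0.42 (SE 0.67). DT HFD replicate 2 had the highest mitosis and lymphocyte scores of the 14 libraries (5.52 and 6.83), and DT SD replicate 3 the lowest of both (1.01 and 2.28). Without DT HFD replicate 2 the mitosis median was 1.12 and 0 genes had an unadjusted p below 0.05. Without DT SD replicates 1 and 3 the median was 1.38 and the count 0, and with the lymphocyte score as a covariate they were 0.46 and 0. With the replicate number as a block they were 1.34 and 0, and with the acinar score as a covariate 1.38 and 1. Without DT HFD replicate 1 and CTRL HFD replicate 4 the median was 2.26 and the count 22 of 22, and for the replication list they were 1.47 and 24 of 28. The mitosis count was 6 without CTRL HFD replicate 5 or DT SD replicate 3 and 8 without CTRL SD replicate 3. The replication count was 3 without DT HFD replicate 2 and 10 without CTRL HFD replicate 5, DT SD replicate 1 or DT SD replicate 3. With the replicate block it was 4, and with the acinar covariate 5. The cells that held these transcripts are not known from whole islets.

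Lymphocyte markers had positive values throughout, 15 of 15, with a median of 1.72 and 3 at an unadjusted p below 0.05 (9.96% over all genes). Cd5, a receptor of T and some B cells, had an interaction of 2.15 (SE 1.03), and Ltb, the lymphotoxin beta gene, stood at 93.8, 163 and 127 CPM in DT HFD, 107, 113, 125 and 59.0 in CTRL HFD, 6.96, 37.2, 5.05 and 61.3 in DT SD, and 83.4, 108 and 87.1 in CTRL SD. The median DT effect of the list was 0.62 on HFD and -1.31 on SD, and without DT SD replicates 1 and 3 the interaction median was 1.02 with 0 genes at an unadjusted p below 0.05. Ighm, the IgM heavy chain, had an interaction of 2.36 (SE 1.12).

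Of 18 myeloid and MHC class II genes 7 were positive and 2 negative at an unadjusted p below 0.05, against 9.96% and 5.65% of all genes. With the replicate block these counts were 1 and 1, and with the acinar covariate 3 and 0. Over all settings they ran from 0 to 11 and from 0 to 3. Lyz2, the lysozyme of myeloid cells, had an interaction of 1.59 (SE 0.65), with 338, 824 and 1028 CPM in DT HFD, 301 to 439 in CTRL HFD, 117 to 411 in DT SD and 363 to 546 in CTRL SD. H2-Ab1, a class II chain, had one of 1.36 (SE 0.57). Cd14, the endotoxin coreceptor, and Mrc1, the mannose receptor of resident macrophages, had -1.38 (SE 0.57) and -1.34 (SE 0.56), so that genes of one cell class lay on both sides of 0. The interferon list had 5 positive and 1 negative of 22, against the same shares, and the 1 negative gene is near the share of all genes. Over all settings the interferon counts ran from 0 to 8 positive and 1 to 3 negative, and the median from -0.25 to 0.65. Psmb8, an immunoproteasome subunit, stood at 125, 234 and 177 CPM in DT HFD, above the 82.6 to 114 CPM of CTRL HFD, and at 31.0 to 83.5 CPM in DT SD, below the 91.3 to 113 CPM of CTRL SD (interaction 1.59, SE 0.54). The negative gene was Rsad2, the antiviral viperin (-1.07, SE 0.36).

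**Figure D4:**
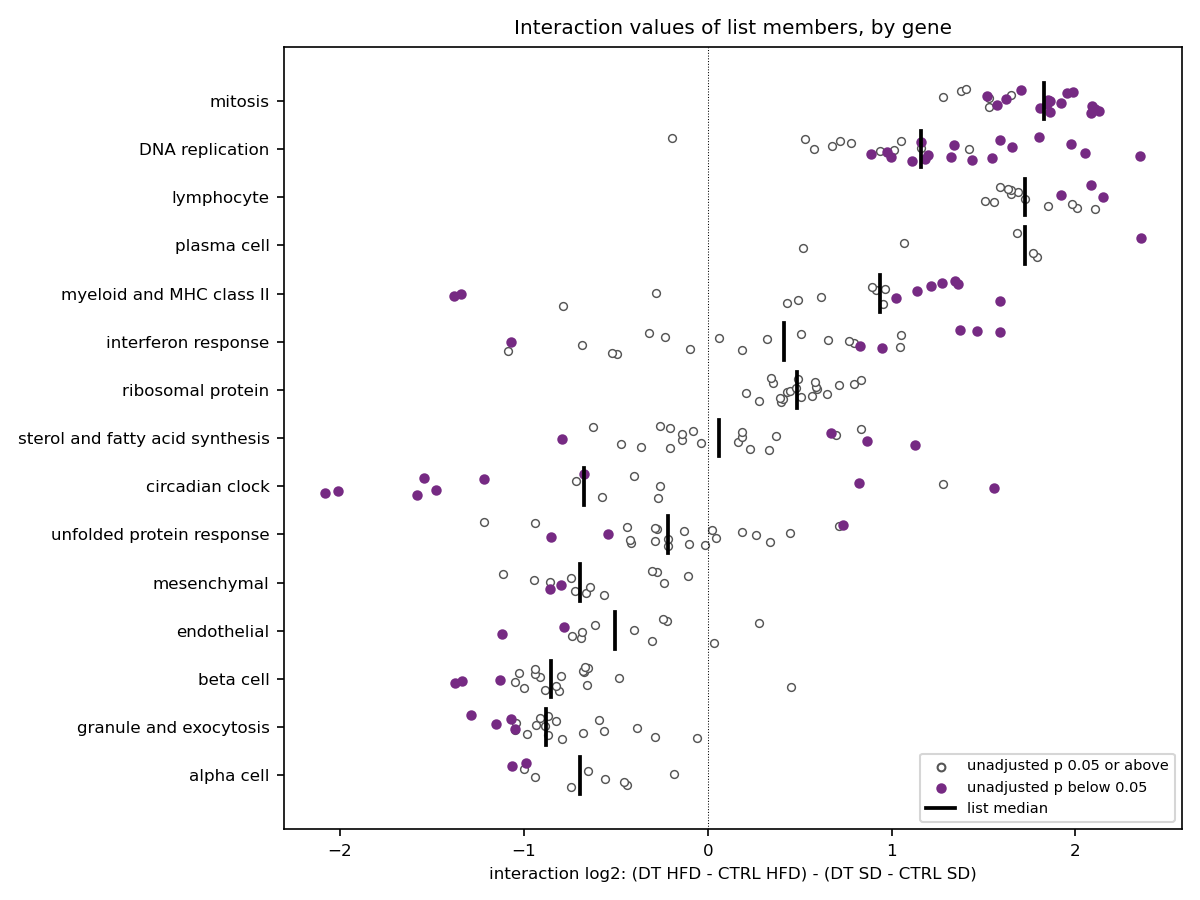
Interaction log2 value of each tested member (points) of 15 gene lists, with the list median as a bar; filled points have an unadjusted p below 0.05, and none passed the adjusted threshold. Mitosis (median 1.83), DNA replication (1.16) and lymphocyte genes (1.72) lie to the right, beta cell (-0.85) and exocytosis genes (-0.88) to the left, and the clock list spans from -2.08 to 1.56.

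Stromal and vascular markers lay mostly below 0. All 14 mesenchymal markers had negative values (median -0.69, 2 at an unadjusted p below 0.05) and 10 of 12 endothelial ones did (median -0.51, also 2), against 5.65% negative at that p over all genes. Tek, the angiopoietin receptor of endothelium, stood at 17.3, 10.1 and 19.4 CPM in DT HFD, 15.8 to 24.9 in CTRL HFD, 31.5 to 43.5 in DT SD and 20.7 to 23.1 in CTRL SD (interaction -1.12, SE 0.39). Igfbp5, which binds insulin-like growth factors, stood at 85.9, 68.5 and 79.8 CPM in DT HFD, 62.2 to 78.6 in CTRL HFD, 105 to 198 in DT SD and 64.1 to 66.3 in CTRL SD (-1.07, SE 0.45). In both genes the groups overlapped on HFD and were apart on SD, though the share of all genes apart on SD was not counted.

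Of 7 islet neuropeptide and PP cell genes, 6 had negative values. Vip, vasoactive intestinal peptide, stood at 25.4, 14.7 and 28.0 CPM in DT HFD and 18.7, 14.5, 9.07 and 8.72 CPM in CTRL HFD. It stood at 109.8, 151, 76.0 and 205 CPM in DT SD and 26.9, 27.6 and 16.8 CPM in CTRL SD, an interaction of -1.68 (SE 0.81, edgeR adjusted p = 0.316). Tac1, the substance P precursor, ranged from 0.399 to 1.10 CPM in DT HFD, 0.485 to 0.977 in CTRL HFD, 4.04 to 8.36 in DT SD and 0.637 to 2.66 in CTRL SD, an interaction of -1.99 (SE 1.05).

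In metabolism, the sterol and fatty acid list was split, with 11 values above and 11 below 0, from -0.79 to 1.13. Of its 22 genes 3 were positive and 1 negative at an unadjusted p below 0.05. Over all genes 9.96% were positive and 5.65% negative at that p. Idi1, an isomerase of sterol synthesis, was at 46.1, 72.5 and 60.7 CPM in DT HFD and 29.6, 32.4, 37.3 and 33.4 CPM in CTRL HFD. It was at 28.1, 30.1, 27.4 and 28.7 CPM in DT SD and 34.2, 35.5 and 34.1 CPM in CTRL SD, so that the groups did not overlap on either diet (interaction 1.13, SE 0.31, edgeR adjusted p = 0.282). Cyp51, the lanosterol demethylase of the same pathway, crossed likewise (0.87, SE 0.24). Of 20 oxidative phosphorylation genes none had an unadjusted p below 0.05, with a median of -0.01 and a range from -0.26 to 0.51. Of 14 fatty acid oxidation genes none did either (median -0.09). Of 14 glycolysis genes 1 did, near the share of all genes: hexokinase 2 (Hk2), at 1.57 (SE 0.63). All 20 ribosomal protein genes were above 0 (median 0.48), none at an unadjusted p below 0.05.

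Stress lists were mixed, and their counts stand against 9.96% positive and 5.65% negative over all genes at an unadjusted p below 0.05. The unfolded protein response list had 1 positive and 2 negative of 23 genes, near those shares, and a median of -0.22. The list of p53 targets had 4 positive of 19 and a median of 0.01. Aen, a nuclease induced by p53, had an interaction of 0.73 (SE 0.19, edgeR adjusted p = 0.282), and Fas, the death receptor, of 1.39 (SE 0.52). The immediate early list had 4 positive and 1 negative of 15, with Egr2, a transcription factor that NAB2 restrains, at 1.82 (SE 0.68). Heat shock, oxidative stress and Reg family genes had 0 genes at an unadjusted p below 0.05, and the 6 Reg genes were all negative (median -2.41), as were all 23 acinar markers (median -2.16). The 10 enterocyte markers had a median of 7.69, and of 1.79 without DT HFD replicate 1 and CTRL HFD replicate 4.

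A further comparison asked whether the diet difference after DT differed from that after streptozotocin (STZ), another beta cell toxin, given at 75 mg/kg to mice of the same genotype labelled 10 weeks after ablation (4 STZ HFD and 4 STZ SD libraries). It contains no CTRL library. The contrast, DT HFD over DT SD minus STZ HFD over STZ SD, called 1 gene (0.00568%), Ighv5-9, at 11.43 (SE 1.86, edgeR adjusted p = 0.0293). The call was lost, with 0 genes called, without any 1 of DT HFD replicate 3, DT SD replicates 1, 2 and 3, STZ HFD replicates 1 and 4 and STZ SD replicates 1 and 4 (smallest edgeR adjusted p 0.0509 to 0.116). It was also lost without STZ HFD replicate 2, where 2 genes were called, both negative. Further losses came without a filter, with the replicate number as block, with the lymphocyte covariate and with its groups alone. In contrast, 530 genes were called without STZ SD replicate 2 and 506 without STZ SD replicate 3. Ighv5-9 had 29, 11, 8 and 0 counts in STZ HFD and 202, 46, 32 and 274 in STZ SD. Arntl had a value of 1.45 in this contrast (SE 0.27, edgeR adjusted p = 0.064), Nr1d2 of -0.94 (edgeR adjusted p = 0.152) and Dbp of -1.08 (edgeR adjusted p = 0.246). Ogn had -2.25, Mfap5 -3.58 and Vip -3.24, with edgeR adjusted p between 0.0829 and 0.0843. Other genes named for the interaction differed less between DT and STZ. Hbp1 had -0.20 (edgeR adjusted p = 0.386), Map1s 0.25 (edgeR adjusted p = 0.483), Fbxo32 -0.77 (edgeR adjusted p = 0.218) and Slc2a2 -0.19 (edgeR adjusted p = 0.873). At an unadjusted p below 0.05 the contrast held 3607 genes (20.5%). The DT libraries are the same as in the interaction, so these values are not an independent repeat of it.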

How the data were processed

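Per the labels' protocols, an RNeasy Mini kit was used to extract islet RNA and a QIAseq stranded mRNA kit to build the libraries; the submitters' processing notes name mm10. The sources used here do not give the aligner, counter or strand setting, so reads of genes with an antisense partner, such as Arntl, Dbp, Nr1d1, Hbp1 and Nab2, may include reads of that partner. The deposited table holds total counts per gene, per the file headers, and all tests used these counts. The RPKM and TPM values that the authors placed beside them were not used, nor was a deposited column headed CPM, which has unequal sums across libraries and is treated as a score. Library numbers in the labels and headers matched columns to samples; 0 columns belonged to other samples.

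The 33 libraries of 9 labelled groups entered 1 fit in edgeR 4.0.16 (R 4.3.3, limma 3.58.1), with TMM scaling, robust quasi-likelihood dispersions and filterByExpr (count minimum 10, total minimum 15), which kept 17616 of 48709 genes. The comparisons are contrasts of that fit, and each p-value comes from edgeR's quasi-likelihood F test and was adjusted after Benjamini and Hochberg over all genes tested. CPM values are relative to TMM-scaled library sizes, and list scores are mean log2 CPM with a prior count of 2. The scripts were tested on simulated counts. Within groups all pairs of libraries differed beyond counting noise (smallest chi-square per degree of freedom 25.7), and none was counted as a duplicate.

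The members, the 35 gene lists and the tests were chosen with earlier results of these data known. The genes named are Mki67, Cdkn1a, Mafa, Slc2a2 and the 5 hormone genes (Ins1, Ins2, Gcg, Sst and Ppy), the 6 genes of smallest p in each direction whose mean log2 CPM reached 1, and the 2 members of smallest adjusted p per list; not all of these are reported, and further clock genes, list members and genes called on 1 diet were added after their values were seen. Gene positions are from GENCODE M21 on GRCm38, in which 17574 of 17616 identifiers (99.76%) were found, and promoters from RefSeq on GRCm38.p6. Other settings were size factors in place of TMM, no filter and a stricter one, scaling without hormone genes, the acinar or lymphocyte score as covariate, the replicate number as block, the groups of a contrast alone, DESeq2 1.42.0 and leaving out each library. Leaving out DT SD replicates 1 and 3 (lymphocyte score under 4), or DT HFD replicate 1 and CTRL HFD replicate 4 (enterocyte score over 3), was added after seeing the data.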

Additional observations from a re-analysis of the deposited data

Results flagged for a closer look

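Ppy, the pancreatic polypeptide gene, had 1 DT SD library far from the others: replicate 3 stood at 7798 CPM, against 187, 29.5 and 170.0 CPM in replicates 1, 2 and 4, a gap of 0.980 of the range of the group. Chance sets off this criterion in about 1 of 20 groups where values are normally distributed. It was applied to 9 genes, as CPM, and to several list scores, in CTRL HFD and DT SD. Over that many uses 1 flag can arise by chance. Replicate 3 also had the highest Gcg and Sst of DT SD, 65303 and 12109.8 CPM, and their part in the result was not tested.

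Ighv5-9 differed in its diet effect between DT and STZ (edgeR adjusted p = 0.0293, log2 11.43, SE 1.86). It stood at 7.00, 21.9 and 321.5 CPM in DT HFD and 0.0819, 0.216, 0.505 and 1.15 CPM in DT SD, against 1.60, 0.803, 0.580 and 0 CPM in STZ HFD and 14.3, 4.23, 3.32 and 18.0 CPM in STZ SD. Without any 1 of 8 libraries, DT HFD replicate 3 among them, this contrast had 0 calls by edgeR.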

How the results depend on the processing

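The interaction had 0 calls in every edgeR setting over all groups, with each library left out (smallest adjusted p 0.0743) and with the replicate number as a block (0 calls, 1748 genes at an unadjusted p below 0.05). It had 2 with the groups of the contrast alone and 106 with DESeq2. The count of genes at an unadjusted p below 0.05, 2751, was 545 with the lymphocyte score as covariate, 998 without DT SD replicates 1 and 3, 1049 without DT HFD replicate 2 and 4420 without the 2 libraries of highest enterocyte score. DT on HFD, 1 call, had 3 with its groups alone, 63 with DESeq2, 9 without the libraries of high enterocyte score, 1 with the block and 0 to 17 with a library left out (17 without DT HFD replicate 1, 0 without DT HFD replicate 2 or CTRL HFD replicate 5). DT on SD, 6 calls, had 27 with its groups alone, 154 with DESeq2, 0 without DT SD replicates 1 and 3, 5 with the block and 2 to 6 with a library left out (2 without DT SD replicate 1, DT SD replicate 3 or CTRL SD replicate 3). The difference between DT and STZ, 1 call, had 0 without a filter, 0 with the block, 0 with the lymphocyte covariate, 0 with its groups alone, 2 with the stricter filter, 2 with hormone genes left out, 849 with DESeq2 and 0 to 530 with a library left out (530 without STZ SD replicate 2, 506 without STZ SD replicate 3).

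Of 60 genes followed, 4 changed the sign of their interaction. Sst (0.06) was at -0.47 with the replicate block, -0.16 with the acinar covariate, -1.20 without the libraries of high enterocyte score and -1.01 to 1.42 with a library left out. Ppy (-0.10) was at 0.0734 with the acinar covariate, 2.25 with the lymphocyte covariate, 4.27 without DT SD replicates 1 and 3 and -4.78 to 3.89 with a library left out. Gcg was at 0.16 with the lymphocyte covariate and 0.00709 without DT SD replicates 1 and 3, and Cdkn1a at -0.0229 with the acinar covariate. The cause of these changes was not tested. In 18 cases, over 17 genes, a gene passed the threshold where it had not, 17 of them with DESeq2.

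Replicate numbers did not pair the libraries: over 16 pairs of the same number the correlation of deviations from the group means ran from -0.09 to 0.19, with 4 above 0.1, and 5 of 14 libraries correlated best with their own number. With 3 or 4 libraries a group and a median SE of 0.44 for the interaction, small differences were not detectable. Large ones could be missed too: Mki67, at 2.08 (SE 0.84), did not pass. A p above the threshold does not show that a gene responded alike on both diets.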
